A study of Drosophila melanogaster with 18 samples.

Results

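The RNAs that still sediment when mimi is absent were described by comparing Δmimi granules 1 with Δmimi lysate. The comparison holds 6 of the 18 libraries of the series, 3 of granules 1 and 3 of lysate. They were taken by genotype and fraction from the labels and paired by replicate number, so each pair is a pellet and the lysate it was spun from. The members are the RNAs of this pellet, and the 9729 of 17558 genes that passed a filter on low counts were tested.

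All flies were adult and untreated, and males and females were used. Δmimi flies lack mimi, a long noncoding RNA of the adult nervous system, through a deletion made with CRISPR-Cas9. The deletion is described as 1 allele. Wild-type flies are w1118, which carry a mutation of the white gene. Very many heads were pooled per preparation, ground in a buffer with detergent and strained to give the lysate. A slow spin of the lysate removed the heaviest material, and a faster spin of the supernatant gave the pellet called granules 1. The supernatant was divided before this spin, and granules 2 is the pellet of the other portion after a wash. The pellet was not purified further, so any particle that escapes the slow spin and sediments in the faster spin can carry RNA into it. The lysate was taken before the slow spin and still holds what that spin removed. A lower value in the pellet can therefore also reflect loss in the slow spin, which was not tested. The study counts the 3 preparations of a genotype as biological replicates. The p-values measure how the difference between pellet and lysate varies across these preparations, with variance estimates that draw on all genes tested. Differences in level between preparations do not enter them.

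Ribonucleoprotein granules are large assemblies of RNA and RNA-binding proteins that form without a membrane. In neurons they carry, store and silence mRNAs, and some of them are built around a long noncoding RNA that binds many proteins at once. mimi is such an architectural RNA of granules that hold Staufen, a protein that binds double-stranded RNA, and the ELAV family proteins FNE and RBP9. Granules of other kinds, polysomes bound to membranes or cytoskeleton, and organelles also pellet at moderate speed.

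The guide RNAs that define the Δmimi genotype are shown because every comparison rests on this deletion. Both are written 5′ to 3′ without the PAM and have 20 bases. They target the mimi gene (lncRNA:mimi, FBgn0051451, chromosome arm 3R, 23983503 to 23985065, plus strand, BDGP6 assembly), a noncoding gene of 1563 exonic bases.
mimi guide 1: tggtagtaccatgaggcgtg
mimi guide 2: agtgttaattgtaagatccc

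The labels were checked on the deleted gene first. mimi had 60, 74 and 42 counts in Δmimi granules 1 and 64 to 106 counts in Δmimi lysates, against 7090 to 18379 counts in all wild-type libraries. The remaining reads gave no call between Δmimi granules 1 and lysate, with 9.82, 14.1 and 7.58 against 15.9, 11.8 and 12.1 CPM (counts scaled to a common library total) and a log2 fold change of -0.35 ± 0.19 (SE, n = 3 pairs, edgeR adjusted p = 0.176). Total counts were 5259896 to 6010996 in Δmimi granules 1 and 5007645 to 6584532 in Δmimi lysates. Defining markers of neurons, photoreceptors, glia, fat body and muscle were all detected. Those of testis, accessory gland and midgut summed to at most 9.34 CPM in granules 1 and 6.61 CPM in lysates. mRNAs encoded by mitochondria and their ribosomal RNAs took 1.47% ± 0.0781 of the counts in Δmimi granules 1 and 4.56% ± 0.482 in Δmimi lysates (SD, n = 3).

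Of the 9729 RNAs, 583 were higher in Δmimi granules 1 than in Δmimi lysate (5.99%) and 779 were lower (8.01%). An RNA was called at a Benjamini-Hochberg adjusted p under 0.05 in edgeR's quasi-likelihood test, with the preparation as a block, and at an absolute log2 fold change above 0.5. Of the called RNAs, 575 and 767 moved in the same direction in all 3 pairs. The libraries of both fractions did not overlap for 451 and 598 of them, whereas 13.2% of all tested RNAs were higher without overlap and 15.9% were lower without overlap. The changes were mostly small. The median log2 fold change was 0.75 for the higher and -0.69 for the lower RNAs, and 173 and 118 of them differed by more than 2-fold. More than 4-fold were 34 of the higher and 6 of the lower RNAs. Without the preparation as a block, 282 RNAs were called higher and 187 lower. Among the RNAs named below, this ended the calls of cd, Vajk2, Vajk3, resilin, Cpr49Ae, Cpr49Ah, ft, Msp300, shot, dpy, Pdh, Sytalpha, Ih and sand. It also ended those of Cam, Srp14, Pdf, Crz, BomT3, ninaE, Mdr65, nrv2, Fbp1, Fbp2, Lsp1gamma, bcd and osk. Dop2R, CG5172, 28SrRNA-Psi:CR40596, lncRNA:Hsromega and the 4 muscle genes Mlc1, Mlc2, TpnC73F and Zasp66 were no longer called either. Calls of Pdh, Crz and cn ended without preparation 1, and those of Sytalpha, Srp14, p, Fbp2, CG5172 and lncRNA:Hsromega without preparation 2. Those of Pdh, Sytalpha, Srp14, BomT3 and CG5172 ended without preparation 3. DESeq2 with the same block did not call Crz, Srp14, Vajk3, CG5172 or 28SrRNA-Psi:CR40596, and with no filter on low counts Pdh and p were not called.

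**Figure D1:**
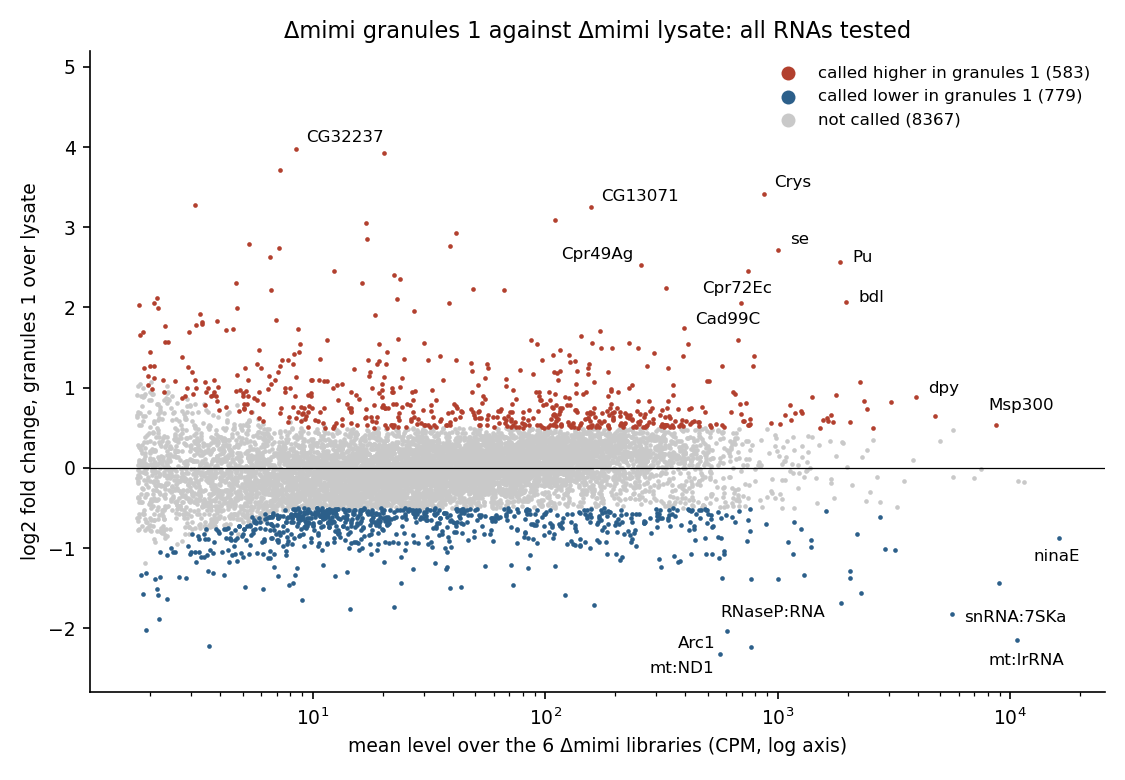
Log2 fold change of Δmimi granules 1 over Δmimi lysate (vertical axis) against the mean level over the 6 libraries in CPM (horizontal log axis) for the 9729 RNAs tested. Red points are the 583 RNAs called higher in granules 1, blue points the 779 called lower and grey points the rest. The strongest enrichments reach 3.98 and the strongest depletions -2.32, and RNAs at both ends include some of more than 1000 CPM.

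Crys, se and Pu stood out among the enriched RNAs because they were both abundant and strongly enriched. Crys encodes drosocrystallin, a protein of the corneal lens (chromosome arm 2L, 11944129 to 11947131, plus strand). It had 1770, 1600 and 1410 CPM in Δmimi granules 1, against 156, 184 and 114 CPM in Δmimi lysates. Every granule library was far above every lysate library, and the means differed 10.5-fold (log2 fold change 3.42 ± 0.09, edgeR adjusted p = 3.45e-16). The wild-type value was 2.84.

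Enzymes of pteridine synthesis, which make the red eye pigments, included several of these RNAs. This group and that of ommochromes, the brown eye pigments, were put together after the values had been seen. se, sepia, which makes a precursor of the red drosopterins (chromosome arm 3L, 8520552 to 8521489, plus strand), had 1900, 1640 and 1650 CPM in Δmimi granules 1 and 257, 309 and 236 CPM in Δmimi lysates. The fractions did not overlap, with a log2 fold change of 2.71 ± 0.08 (edgeR adjusted p = 4.96e-15), and the wild-type value was 3.07. Pu, the GTP cyclohydrolase that starts the pathway, had 3380, 2910 and 3170 CPM in granules 1 and 518, 660 and 444 CPM in lysates (2.57 ± 0.10, edgeR adjusted p = 1.59e-13). pr, the next enzyme of the pathway, was enriched by 2.24 ± 0.11 and Hn, a phenylalanine hydroxylase, by 1.03 ± 0.06. ry, xanthine dehydrogenase, passed at 0.62 ± 0.09. The other members were not called, with 0.27 for cl, 0.09 for cin, 0.07 for mal and -0.10 for Sptr. In all, 5 of 9 tested members were higher and 0 lower, with a median of 0.62 beside -0.016 for all RNAs tested.

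Of the ommochrome enzymes and pigment transporters, 4 of 5 tested members were higher and 0 lower (median 0.93). cn, kynurenine hydroxylase, was rare and had a log2 fold change of 2.06 ± 0.42. The transporter subunit bw had 318, 248 and 286 CPM in Δmimi granules 1 and 105, 102 and 97.9 CPM in Δmimi lysates, with no overlap (1.49 ± 0.07, edgeR adjusted p = 7.74e-12). st, the partner of White for ommochromes, had 208, 158 and 166 CPM in granules 1 and 102, 88.3 and 89.4 CPM in lysates (0.93 ± 0.07). cd, which acts late in ommochrome synthesis, was enriched by 0.68 ± 0.10, and v, tryptophan dioxygenase, had -0.15 ± 0.14 and was not called. The RNA of w, the gene mutated in w1118, was below the filter with 0, 0 and 0.18 CPM in granules 1 and 0.15, 0.176 and 0.378 CPM in lysates. Rab32, the small GTPase of pigment granules that is known as lightoid, was chosen after its values were seen. It had 1330, 1010 and 1100 CPM in granules 1 and 446, 473 and 396 CPM in lysates (1.39 ± 0.08). The vesicle sorting genes named for eye colours hardly moved. Only p, at 0.51 ± 0.07, was called among 9 of them, and their median was 0.15.

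**Figure D2:**
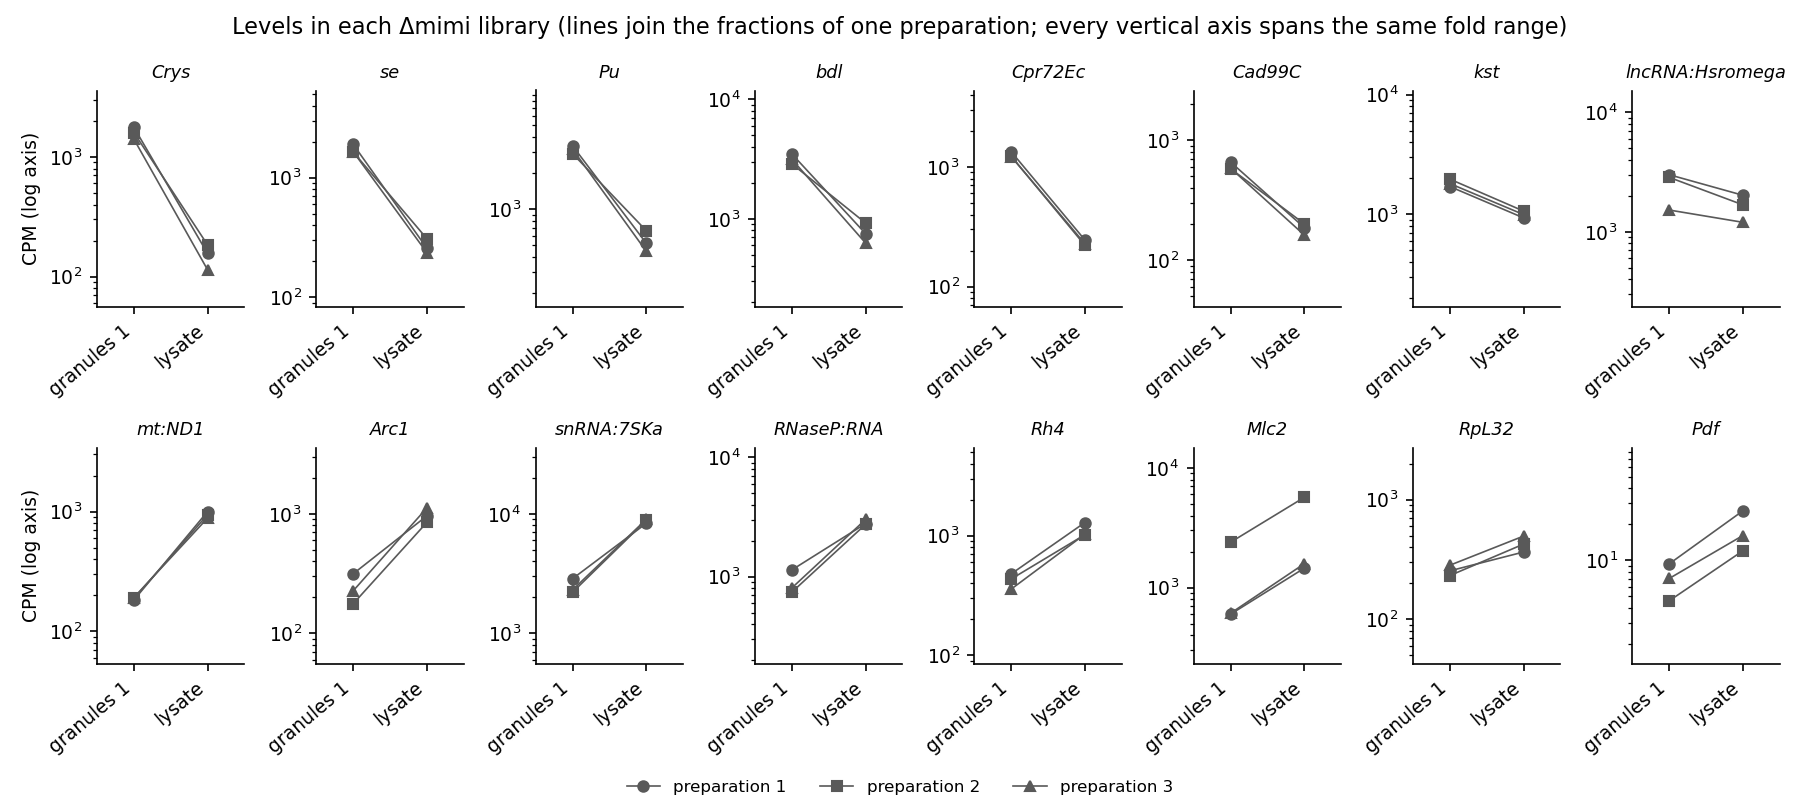
Levels in CPM (vertical log axes, each spanning the same fold range) of 16 RNAs in Δmimi granules 1 (left) and Δmimi lysate (right). Each symbol is a library and lines join the fractions of a preparation. The upper row shows enriched and the lower row depleted RNAs. The lines of Crys, se, Pu and mt:ND1 are steep in every preparation, whereas for Mlc2 preparation 2 is high in both fractions.

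Cuticle protein RNAs were the other enriched group. Of 33 tested members of the Cpr family, whose proteins bind chitin through a shared consensus motif, 13 were higher and 1 was lower, with a median of 0.49. The median of single pairs was 0.72, 0.14 and 0.78, so that preparation 2 showed the smallest shift. Cpr72Ec, a protein of the corneal lens, had 1340, 1230 and 1220 CPM in Δmimi granules 1 and 245, 221 and 228 CPM in Δmimi lysates. These values did not overlap (2.46 ± 0.07, edgeR adjusted p = 9.32e-16). Cpr49Ag had 449, 398 and 465 CPM in granules 1 and 73.9, 94.6 and 61.4 CPM in lysates (2.53 ± 0.10), while Cpr49Af and Cpr66D, with at most 39.5 CPM in a library, were enriched by 2.45 ± 0.21 and 2.41 ± 0.14.

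The remaining lens and cuticle proteins formed a list of 13 tested RNAs, which was trimmed after the top genes had been seen. Of these, 6 were higher and 1 was lower, with a median of 0.50. Without preparation 1 the median was 0.13. The Vajk genes encode cuticle proteins, and Vajk1 (2.23 ± 0.11) and Vajk2 (1.56 ± 0.20) were called. Vajk2 had 201, 287 and 188 CPM in granules 1 and 39.6, 198 and 42.9 CPM in lysates, so that preparation 2 made the fractions overlap. resilin, an elastic cuticle protein, was enriched by 1.29 ± 0.21 with overlap. retinin, another protein of the corneal lens, went the other way with -0.76.

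Some of these genes are neighbours, which was examined after their values had been seen. On chromosome arm 2L, from 13920707 to 13947476, 4 genes are annotated and 3 were tested. These are Vajk1, Vajk2 and Vajk3, and all 3 were higher, by 1.11 to 2.23. On arm 3L, from 16261185 to 16288422, 7 of 17 annotated genes were tested, and CG34247, CG13071 and CG13046 were higher while CG4950, CG13068, CG13067 and CG13065 were not called. Around Cpr49A 5 of 8 tested genes were higher, namely Cpr49Ae, Cpr49Af, Cpr49Ag, CG30050 and Cpr49Ah.

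Of the 12 RNAs with the highest fold changes, 8 carry only a CG number as a name. CG32237 had 17.8, 17 and 13.2 CPM in Δmimi granules 1 and 1.8, 0.703 and 0.378 CPM in Δmimi lysates (3.98 ± 0.28, edgeR adjusted p = 1.63e-09). CG34247 had 15.4, 13.5 and 11.4 CPM in granules 1 and 0.899, 1.23 and 0.945 CPM in lysates (3.71 ± 0.27). CG13071 was more abundant, with 320, 273 and 261 CPM in granules 1 against 32.4, 29.9 and 28.2 CPM in lysates (3.25 ± 0.08, edgeR adjusted p = 3.1e-16). No granule library of these RNAs came near a lysate library. CG5653 (3.09), CG42367 (3.05), CG13046 (2.93), CG13022 (2.85), Vajk4 (2.77), CG11997 (2.74) and the sodium phosphate cotransporter NaPi-T (2.63) completed the 12 highest with Crys and se. FBgn0085799, an identifier with no gene name, had a fold change of 3.93, above 11 of the 12, but did not move the same way in every pair. It averaged 38.5 CPM in granules 1 and 2.07 CPM in lysates.

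Some RNAs of adhesion receptors, motors and the cytoskeleton were also enriched. bdl, an adhesion protein of the immunoglobulin family, and Swim, a secreted protein that binds Wingless, were chosen after their values were seen. bdl had 3490, 2890 and 3150 CPM in Δmimi granules 1 and 753, 924 and 628 CPM in Δmimi lysates (2.07 ± 0.09, edgeR adjusted p = 2.97e-12). Swim had 1170, 1110 and 1040 CPM in granules 1 and 231, 380 and 220 CPM in lysates (2.05 ± 0.10). Of 41 tested receptors of cell adhesion and axon guidance, 10 were higher and 0 lower, and 38 had a fold change above 0 (median 0.36). Cad99C, a cadherin of microvilli, led them with 660, 581 and 587 CPM in granules 1 and 187, 201 and 162 CPM in lysates (1.74 ± 0.07, edgeR adjusted p = 7.05e-13). The atypical cadherin ft (0.85 ± 0.08), rst, a receptor of eye patterning (1.02 ± 0.08), and Cad87A (0.74 ± 0.07) followed. The neural members Dscam1 (0.62) and CadN (0.55), picked out after their values were seen, were among the 10. Of 35 motor and cytoskeleton genes, 9 were higher and 0 lower (median 0.13). kst, the heavy beta-spectrin, had 1700, 1960 and 1800 CPM in granules 1 and 930, 1060 and 991 CPM in lysates (0.88 ± 0.06), and the dynein heavy chain Dhc64C was enriched by 0.68 ± 0.06.

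By the mean over both fractions, the 5 most abundant enriched RNAs were Msp300, shot, dpy, Pdh and FBgn0027571, which has no matched name. Msp300, a nesprin that links nuclei to actin, had 10900, 10600 and 9420 CPM in Δmimi granules 1 and 7280, 7450 and 6650 CPM in Δmimi lysates (0.54 ± 0.06). dpy, a giant protein that anchors epidermis to cuticle, had 4810, 6720 and 3660 CPM in granules 1 and 2510, 3810 and 2010 CPM in lysates (0.88 ± 0.06). For dpy the fractions overlapped, because preparation 2 was high in both, although granules exceeded their own lysate in every pair. The spectraplakin shot had 5840, 6150 and 5330 CPM in granules 1 and 3600, 4210 and 3370 CPM in lysates (0.65 ± 0.06). Msp300, shot and dpy were no longer called with a correction for exon length.

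Neuronal gene groups showed little movement. Of 39 synaptic vesicle and release genes 1 was higher and 0 lower (median 0.11), and this was Sytalpha, a synaptotagmin. It had 101, 86.7 and 98.9 CPM in Δmimi granules 1 and 85.6, 53.3 and 60.1 CPM in Δmimi lysates, barely without overlap (0.55 ± 0.09, edgeR adjusted p = 0.000115). Of 38 voltage-gated and leak channels 3 were higher and 2 lower (median 0.19). The pacemaker channel Ih rose by 0.73 ± 0.07 and the leak channel sand fell by 0.97 ± 0.17. Of 32 fast transmitter receptors 0 were higher and 3 lower (median 0.05), and of 31 genes of cAMP and calcium signalling 1 was higher and 2 were lower (median -0.03). Calmodulin, Cam, had 547, 470 and 398 CPM in granules 1 and 900, 683 and 575 CPM in lysates (-0.59 ± 0.07). The granule RNA-binding proteins were still closer to the lysate. Of 36 tested, 0 were higher and 1 was lower (median 0.01). This was Rbp9, with 342, 321 and 285 CPM in granules 1 and 746, 647 and 617 CPM in lysates, and no overlap (-1.08 ± 0.07, edgeR adjusted p = 1.64e-10). Staufen mRNA, stau, had -0.04 ± 0.07 and fne -0.11 ± 0.08, and neither was called.

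The list of genes that the study names, many of them for their proteins, had 20 tested RNAs. Of these, 1 was higher and 3 were lower (Sytalpha, and snRNA:7SKa, Rbp9 and RpL32). An mRNA value here does not bear on where the protein is found. klg (0.28), rut (0.18), Shab (0.18), tral (0.16), Hk (0.09), CG31140 (0.06), Usp14 (0.05), BicD (0.01), Fmr1 (0.01), elav (-0.03), dnc (-0.10), chic (-0.35) and Atox1 (-0.37) were not called.

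Of the 32 neuropeptide precursors tested, 0 were higher and 4 lower (median -0.14). Pdf, the clock neuropeptide, had 9.33, 4.58 and 7.04 CPM in Δmimi granules 1 and 25.9, 12 and 16.1 CPM in Δmimi lysates. Each pellet was below its lysate and no libraries overlapped (-1.35 ± 0.17, edgeR adjusted p = 3.13e-06). The insulin-like peptide Ilp2 had 18.8, 15.3 and 13.7 CPM in granules 1 and 34.8, 29.4 and 28 CPM in lysates (-0.94 ± 0.12), and corazonin, Crz, fell by 1.06 ± 0.26. Genes of translocation into the endoplasmic reticulum, which handle such precursors, had a share of lower calls near that of all RNAs tested (8.01%). Of 33 tested 0 were higher and 3 lower (median 0.00), namely Sec61gamma (-1.03), Spase12 (-0.81) and Srp14 (-0.63). The RNA of the signal recognition particle itself was lower, as both annotated 7SL copies had -1.07 ± 0.09. The copies are near-identical, so reads could be divided between them by the counting.

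**Figure D3:**
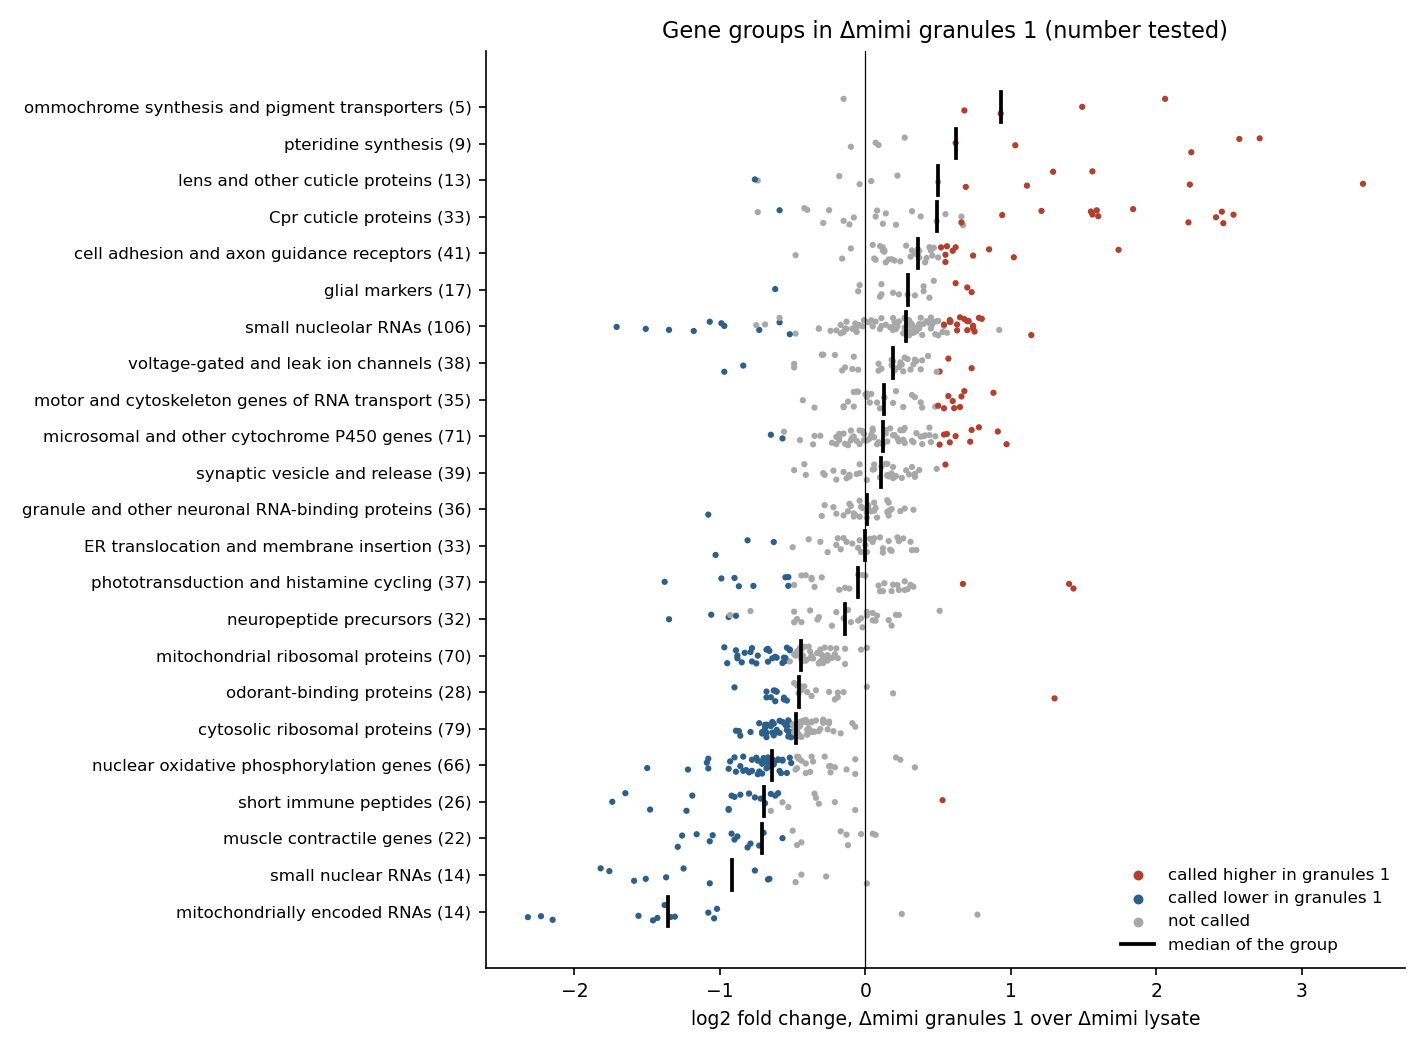
Log2 fold changes of Δmimi granules 1 over Δmimi lysate for the tested members of 23 gene groups, with the number tested in brackets. Each point is an RNA, coloured by its call, and the black bars are medians. Medians run from 0.93 for ommochrome and pigment transporter genes to -1.36 for mitochondrially encoded RNAs, while synaptic vesicle genes and granule RNA-binding proteins lie at 0.11 and 0.01.

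RNAs of mitochondria were the most depleted. Of 14 tested RNAs encoded by the mitochondrial genome 12 were lower and 0 higher, with a median of -1.36. mt:ND1, a subunit of complex I, had 182, 188 and 191 CPM in Δmimi granules 1 and 1000, 940 and 882 CPM in Δmimi lysates, a wide gap in every preparation (-2.32 ± 0.07, edgeR adjusted p = 4.96e-15). The large ribosomal RNA mt:lrRNA had 4200, 4520 and 3110 CPM in granules 1 and 19400, 18400 and 14700 CPM in lysates (-2.15 ± 0.07). The other mRNAs named here had -1.56 ± 0.09 for mt:Cyt-b, -1.43 ± 0.08 for mt:CoI and -1.02 ± 0.08 for mt:CoIII. mt:ND2 (0.25) and mt:tRNA:Tyr-GTA (0.77) were not called. In bulk libraries of this kind, fewer mitochondria in the pellet and less RNA per mitochondrion cannot be told apart, and the same holds for cells of a type.

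Part of the mRNAs for respiratory chain and ribosomal proteins were lower as well. Of 66 nuclear genes of oxidative phosphorylation 44 were lower and 0 higher (median -0.64). COX8, a subunit of cytochrome c oxidase, had 60.9, 84.1 and 51.6 CPM in Δmimi granules 1 and 141, 207 and 117 CPM in Δmimi lysates (-1.22 ± 0.07), with no overlap. Of 79 cytosolic ribosomal protein genes 35 were lower and 0 higher (median -0.48), and all 79 had a fold change below 0. RpL32 had 254, 232 and 283 CPM in granules 1 and 365, 425 and 496 CPM in lysates (-0.73 ± 0.07, edgeR adjusted p = 1.81e-07). Of 70 mitochondrial ribosomal protein genes 26 were lower and 0 higher (median -0.44). Odorant-binding proteins, small secreted carriers, had 11 of 28 lower and 1 higher (median -0.46), the last being Obp19c at 1.30 ± 0.16. Of the 4 histone genes tested, His2Av, His3.3A, His3.3B and His2B:CG33868, 0 were called (median -0.40). At an unadjusted p under 0.05, 4293 of all RNAs tested differed in edgeR, so small shifts of this kind were common.

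Short immune peptides, a group chosen after its values were seen, had 17 of 26 members lower and 1 higher (median -0.70). BomS6, a Bomanin induced by Toll signalling, had 6.55, 8.58 and 15.9 CPM in Δmimi granules 1 and 26.7, 28.5 and 47.6 CPM in Δmimi lysates (-1.74 ± 0.14, edgeR adjusted p = 6.1e-09). All granule libraries were below all lysate libraries. BomS5 fell by 1.48 ± 0.10 and the Drosomycin-like gene Drsl5 by 1.23 ± 0.07. BomT3 was the exception at 0.53 ± 0.10.

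Muscle genes differed in level between preparations. Of 22 contractile genes 13 were lower and 0 higher (median -0.71). The myosin light chain Mlc2 had 598, 2390 and 609 CPM in Δmimi granules 1 and 1450, 5670 and 1580 CPM in Δmimi lysates. Preparation 2 was about as far above the others in the pellet as in the lysate, so the fractions overlapped, yet each pellet was below its own lysate (-1.29 ± 0.07, edgeR adjusted p = 1.46e-11). Mlc1 (-1.07), TpnC73F (-1.26) and Zasp66 (-1.16) behaved alike, and without the block 0 of these 4 were called. The giant muscle proteins were not called, with -0.13 for sls and -0.12 for bt. Summed muscle markers were 5960 to 20200 CPM in granules 1 and 7340 to 22400 CPM in lysates, and their part in these values was not tested.

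Photoreceptor RNAs were mixed. Of 37 genes of phototransduction and histamine cycling 3 were higher and 8 lower (median -0.05). The UV opsin Rh4 had 480, 435 and 358 CPM in Δmimi granules 1 and 1290, 1020 and 1030 CPM in Δmimi lysates, with no overlap (-1.38 ± 0.07, edgeR adjusted p = 1.76e-11). ninaE, the main opsin, had 15100, 7190 and 11700 CPM in granules 1 and 24900, 12400 and 25700 CPM in lysates, and preparation 2 was low in both (-0.87 ± 0.08). Among the opsins chosen after their values were seen, Rh3 fell by 0.77 ± 0.07 and Rh5 by 0.53 ± 0.07, and Rh6 had -0.37 ± 0.06 and was not called. The channel trp (-0.49) and the scaffold inaD (0.13), chosen likewise, were not called either. In the other direction, the scavenger receptor santa-maria, which takes up carotenoids, had 641, 502 and 555 CPM in granules 1 and 252, 197 and 197 CPM in lysates (1.40 ± 0.07). The lipid phosphatase laza was enriched by 1.43 ± 0.08. Summed photoreceptor markers were 14400 to 22400 CPM in granules 1 and 21400 to 34100 CPM in lysates.

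Glial, fat body and metabolic genes are given beside all RNAs tested, of which 5.99% were higher and 8.01% lower. Of 17 glial genes 3 were higher and 1 was lower (median 0.29). axo, a neurexin of glia, was enriched by 0.73 ± 0.07, the transporter Mdr65 of the blood-brain barrier by 0.70 ± 0.07 and gliotactin, Gli, by 0.62 ± 0.08, while nrv2 fell by 0.62 ± 0.07. Of 17 fat body genes 5 were higher and 2 lower (median 0.25). Larval storage genes among them were at a high level in preparation 2. Fbp1, a receptor of storage proteins, had 3.76, 174 and 7.76 CPM in Δmimi granules 1 and 1.05, 41.5 and 2.08 CPM in Δmimi lysates (2.06 ± 0.13). Its libraries overlapped, but every pellet was above its own lysate, by 3.59 to 4.19-fold. Without preparation 2 Fbp2 lost its call and Fbp1 and Lsp1gamma did not, but without the block each of them lost it. Cytochrome P450 genes had 10 of 71 higher and 2 lower (median 0.12), with Cyp6a2 at 0.91 ± 0.07, and glutathione S-transferases 1 of 30 higher and 0 lower (median -0.08). Of 21 chaperones 3 were higher and 0 lower (median 0.18), and of 13 glycolytic enzymes 0 were called (median 0.09).

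Of 29 maternal germline genes 4 were higher and 1 was lower (median 0.02). The medians of single pairs were 0.74, -0.12 and 0.03, so that preparation 1 showed the largest shift. In wild type 0 of 23 tested members were higher and 4 lower (median -0.02). bcd and osk, the localized determinants of the oocyte that Staufen is known to carry, were rare in heads. osk had 29.1, 45 and 72.9 CPM in Δmimi granules 1 and 8.84, 32 and 29.9 CPM in Δmimi lysates, with overlap between preparations (1.10 ± 0.15, edgeR adjusted p = 7.49e-06). bcd had 6.55, 13.3 and 19.8 CPM in granules 1 and 1.95, 4.22 and 5.86 CPM in lysates (1.73 ± 0.20). grk, the oocyte signal to the follicle, went the other way, with 13.9, 11.4 and 13.2 CPM in granules 1 and 34.2, 37.6 and 33.6 CPM in lysates (-1.44 ± 0.13). The 4 ovary markers measured summed to 75.3 to 149 CPM in granules 1 and 57.7 to 111 CPM in lysates, so germline RNA was present in both fractions, and its part in these calls was not tested.

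Noncoding RNAs separated by class. The part that material lost in the slow spin has in these values was not tested. Of 14 small nuclear RNAs 10 were lower and 0 higher (median -0.92). snRNA:7SKa, the RNA that holds the elongation factor P-TEFb, had 2870, 2210 and 2310 CPM in Δmimi granules 1 and 8330, 8830 and 9000 CPM in Δmimi lysates, with no overlap (-1.82 ± 0.08, edgeR adjusted p = 2.31e-12). The U4 RNA snRNA:U4:39B fell by 1.59 ± 0.07 and U4atac by 1.76 ± 0.16, both parts of spliceosomes. RNaseP:RNA, which processes tRNA, had 1140, 743 and 806 CPM in granules 1 and 2780, 2740 and 3010 CPM in lysates (-1.68 ± 0.09). RNaseMRP:RNA, its relative in ribosomal RNA processing, was chosen after its values were seen and had 1220, 1110 and 1070 CPM in granules 1 and 2710, 3170 and 2990 CPM in lysates (-1.37 ± 0.07).

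Small nucleolar RNAs, which guide modification of ribosomal RNA, were unlike the other short nuclear RNAs. Of 106 tested 16 were higher (15.1%, beside 5.99% of all RNAs tested). Lower were 10 (9.43%), a share near the 8.01% of all RNAs tested. A fold change above 0 was found for 74 (median 0.28). snoRNA:Psi28S-1180 had 20.5, 25.5 and 26.2 CPM in Δmimi granules 1 and 10.6, 12 and 10.2 CPM in Δmimi lysates (1.14 ± 0.14). snoRNA:Psi28S-2566 had 67.9, 88.3 and 66.9 CPM in granules 1 and 182, 307 and 257 CPM in lysates (-1.71 ± 0.09). The fractions of neither RNA overlapped, which held for 13.2% (higher) and 15.9% (lower) of all RNAs tested. Many of these RNAs lie in introns, and reads of unspliced host transcripts could be counted with them.

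Long noncoding RNAs leaned to the lysate, with 9 of 127 higher and 23 lower (median -0.19). Of all RNAs tested 5.99% were higher and 8.01% lower. Of 60 antisense RNAs 2 were higher and 5 lower (median -0.05), a lower share near that of all RNAs tested. The strand setting of the counting is not given in the sources used here, so reads of an antisense RNA and its partner cannot be separated with certainty. asRNA:CR45800 had the highest value, with 13.6, 8.2 and 10.8 CPM in Δmimi granules 1 and 1.8, 2.11 and 3.21 CPM in Δmimi lysates (2.22 ± 0.26). Several abundant long noncoding RNAs were chosen after their values were seen. lncRNA:Hsromega, the heat-inducible RNA of nuclear omega speckles, had 3000, 2850 and 1520 CPM in granules 1 and 2020, 1680 and 1200 CPM in lysates, with overlap (0.57 ± 0.08). lncRNA:roX2 of male dosage compensation had 217, 185 and 173 CPM in granules 1 and 418, 439 and 415 CPM in lysates (-1.14 ± 0.07), and lncRNA:roX1 had -0.37 ± 0.07 and was not called. lncRNA:cherub, known from neural stem cells, was rare and fell by 2.22 ± 0.32.

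Arc1 was the most depleted mRNA encoded in the nucleus among the 12 lowest. Its protein is related to retroviral Gag and carries its own mRNA in capsids. Arc1 had 315, 177 and 227 CPM in Δmimi granules 1 and 961, 848 and 1120 CPM in Δmimi lysates, far apart in every preparation (-2.04 ± 0.10, edgeR adjusted p = 7.91e-12). The wild-type value was -1.79. It was the only one of 10 activity-regulated genes that was called, and their median was -0.12.

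Length was a property that the comparison did not use and that followed it. The 9176 nuclear protein-coding genes tested were ordered by exon length and divided into 5 equal bins. In the shortest bin, 198 to 1202 bases, the median log2 fold change was -0.36, and 26.7% of genes were lower and 3.0% higher in Δmimi granules 1. In the longest, 4255 to 71820 bases, the median was 0.18, and 0.981% were lower and 10.3% higher. The bins between had medians of -0.12, -0.01 and 0.10. The median exon length was 3115 bases for the genes called higher, 853 bases for those called lower and 2190 bases for all. Exons summed to under 1000 bases in 6.57% of the higher, 61.6% of the lower and 13.7% of all genes. Across these genes, which are not independent replicates and share the same libraries, Spearman's rho of length and fold change was 0.54. It was 0.59 for the coding length, 0.21 for the length of the 3′ untranslated region and 0.24 for the mean level. Exon length merges the exons of all transcripts of a gene, while coding and untranslated lengths are those of its canonical transcript. These values of rho are therefore not on like measures and do not rank the lengths.

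After a correction for exon length in each library, 500 RNAs were higher and 399 lower, of which 390 and 318 were also called without it. The correction ended the calls of Sytalpha, Ih, Crz, Spase12, Srp14, axo, Gli, Dhc64C, RpL32, ry, p, Rh5 and lncRNA:Hsromega. The medians of the gene groups moved unequally. Cytosolic ribosomal proteins had a corrected median of -0.21, mitochondrial ribosomal proteins -0.18, oxidative phosphorylation genes -0.35, odorant-binding proteins -0.12 and immune peptides -0.26. Those of adhesion receptors and motor genes were 0.14 and 0.05. By contrast muscle genes had -0.74, Cpr genes 0.55, pteridine genes 0.61, mitochondrially encoded RNAs -1.02 and small nucleolar RNAs 0.62.

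**Figure D4:**
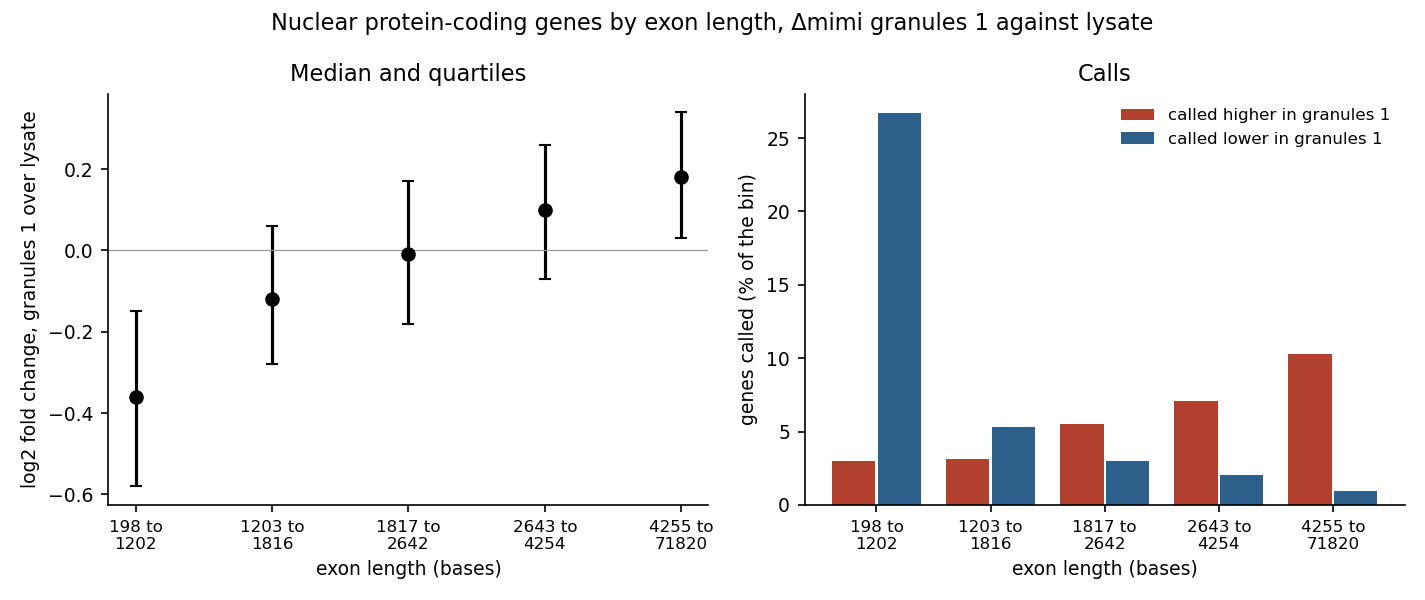
Nuclear protein-coding genes in 5 equal bins of exon length in bases (horizontal axes). Left, the median log2 fold change of Δmimi granules 1 over Δmimi lysate with bars from the lower to the upper quartile. Right, the percentage of each bin called higher (red) or lower (blue) in granules 1. The median climbs from -0.36 in the shortest to 0.18 in the longest bin, and the share called lower falls from 26.7% to 0.981%.

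The comparison with wild type asks for which RNAs the share of the pellet, relative to that of the lysate, differs between the genotypes. An RNA that is not enriched can still be in the pellet. In wild-type flies 727 of 9740 RNAs were higher in granules 1 than in lysate (7.46%) and 890 were lower (9.14%). The genotypes share no library. Of the 583 RNAs enriched in Δmimi 410 were also called enriched in wild type, which is 70.3% of the Δmimi list and 56.4% of the wild-type list. Of the depleted RNAs 512 were shared, 65.7% of the Δmimi and 57.5% of the wild-type list. Only CG5172 and Dop2R were called in opposite directions. The Δmimi-enriched RNAs tested in both had a median of 0.74 in Δmimi and 0.77 in wild type. The wild-type-enriched RNAs had 0.57 in Δmimi and 0.80 in wild type. Choosing a list by a genotype favours its values there, although the Δmimi list was not higher in Δmimi. Over 9521 RNAs tested in both genotypes Pearson's r of the fold changes was 0.83 and Spearman's rho 0.80. Group medians were close for some groups and apart for others. Cpr genes had 0.49 in Δmimi and 0.51 in wild type, muscle genes -0.71 and -0.78, small nuclear RNAs -0.92 and -1.01, and mitochondrially encoded RNAs -1.36 and -1.26. The 5 ommochrome and pigment transporter genes had 0.93 in Δmimi and 1.57 in wild type, and both medians are the values of the single gene st. Neuropeptide precursors had -0.14 and -0.32, and chaperones 0.18 and -0.01. Glutathione S-transferases had -0.08 in Δmimi and 0.10 in wild type, with 1 of 30 higher in Δmimi and 7 of 31 in wild type. These differences of medians were not tested.

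The genotype difference itself was tested as an interaction in 12 libraries, as the Δmimi minus the wild-type log2 fold change. Of 9768 RNAs 5 were more enriched in Δmimi (0.0512%) and 45 less enriched (0.461%), and 744 had an unadjusted p under 0.05. mimi, the gene with the deletion, is among the 45 (-1.40, edgeR adjusted p = 0.0469). The deletion is shorter than the annotated gene, and the study reports that the 3′ untranslated region of CG31140 reaches into the locus. The origin of the remaining reads in Δmimi was not tested, so this value may not describe mimi RNA. Of the 45, 20 were called enriched in both genotypes, 21 in wild type only and 3 depleted in Δmimi, and their medians were 0.42 in Δmimi and 1.17 in wild type. Fold changes were above 0 in Δmimi for 35 of them. These counts rest on the block and on single preparations. Without the block 0 were more and 1 was less enriched. Without Δmimi preparation 2 the counts were 1 and 10, without Δmimi preparation 3 they were 1 and 12, and without wild-type preparation 3 they were 2 and 13. Without wild-type preparation 1 they were 9 and 29, and without wild-type preparation 2 they were 5 and 69.

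salr, a zinc finger transcription factor of the spalt complex (chromosome arm 2L, 11358873 to 11373636, plus strand), was the RNA that passed in every one of these settings. It had 26.7, 30.1 and 28.3 CPM in Δmimi granules 1 and 31.6, 24.6 and 23.8 CPM in Δmimi lysates, hence no separation of fractions (0.09 ± 0.12). In wild type it had 155, 162 and 172 CPM in granules 1 and 43.7, 43.3 and 39.5 CPM in lysates, a clear gap (1.94). The difference was -1.86 (edgeR adjusted p = 3.35e-05), or -1.86 without the block (edgeR adjusted p = 0.00126). Its level was lower in Δmimi in both fractions. Its neighbour and paralog salm, chosen after its values were seen, had 0.06 in Δmimi and -0.23 in wild type, with a difference of 0.28 (edgeR adjusted p = 0.844).

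Dop2R, a dopamine receptor on the X chromosome, changed direction. It had 205, 191 and 127 CPM in Δmimi granules 1 and 400, 277 and 248 CPM in Δmimi lysates, so it was depleted (-0.81 ± 0.08). In wild type it had 733, 716 and 579 CPM in granules 1 and 416, 342 and 339 CPM in lysates, and it was enriched (0.88). The difference was -1.70 (edgeR adjusted p = 2.35e-05), and without the block it did not pass (adjusted p = 0.506). st, the pigment transporter above, was enriched in both genotypes but less in Δmimi, 0.93 against 1.57 (difference -0.65, edgeR adjusted p = 0.007). Cpr72Ec showed the opposite, 2.46 in Δmimi against 1.51 in wild type. Its level in granules 1 was lower in Δmimi, with 1340, 1230 and 1220 CPM against 2790, 2390 and 2850 CPM in wild type. CG5172 lost its call without Δmimi preparation 2 and also without preparation 3, having 0.818, 87.9 and 13.9 CPM in Δmimi granules 1 and 0.75, 64.9 and 7.18 CPM in Δmimi lysates.

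**Figure D5:**
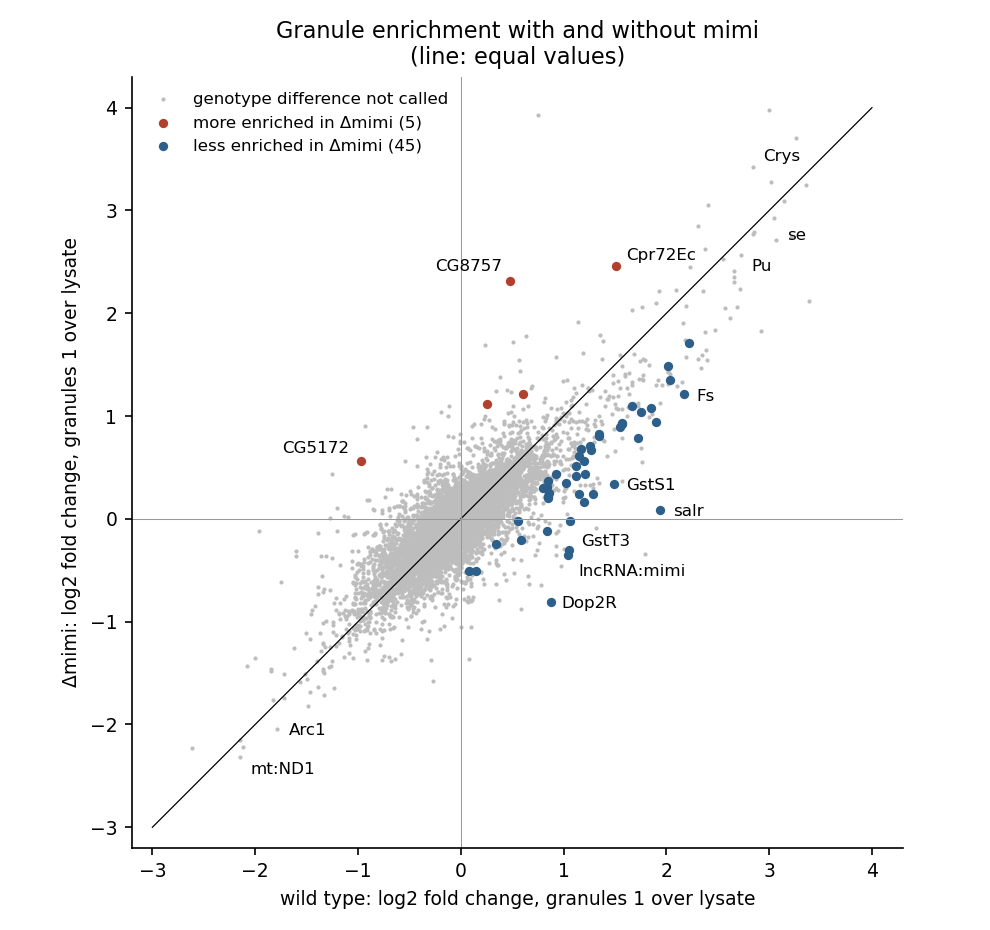
Log2 fold change of granules 1 over lysate in Δmimi (vertical axis) against that in wild type (horizontal axis), 1 point per RNA tested in all fits. The line marks equal values. Red points are the 5 RNAs more enriched and blue points the 45 less enriched in Δmimi by the interaction test. Most RNAs lie along the line, and salr (0.09 against 1.94) and Dop2R (-0.81 against 0.88) lie far below it.

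The washed pellet was compared with the same lysates. Granules 2 and granules 1 of Δmimi share the lysate libraries, so their fold changes are given side by side without a test. In Δmimi granules 2, 618 of 9762 RNAs were higher than in lysate (6.33%) and 814 lower (8.34%). Crys had 3.42 in granules 1 and 3.37 in granules 2, Pu 2.57 and 2.56, bdl 2.07 and 2.01, Arc1 -2.04 and -2.09, and snRNA:7SKa -1.82 and -1.83. lncRNA:Hsromega had 0.57 and 0.74. The median of long noncoding RNAs was -0.19 in granules 1 (23 lower) and 0.01 in granules 2 (17 lower), and that of small nuclear RNAs was -0.92 and -0.64. Sytalpha had 0.55 in granules 1 and 0.48 in granules 2, where it was not called. The RNA 28SrRNA-Psi:CR40596, a ribosomal pseudogene that may share reads with the ribosomal genes, had 16, 63.5 and 14.3 CPM in granules 1 and 10, 11.3 and 9.64 CPM in lysates. Its value was 1.44 in granules 1 and 0.40 in granules 2.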

How the data were processed

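Total RNA of head lysates and pellets was measured after removal of ribosomal RNA with a stranded kit. The authors mapped the reads and counted them with featureCounts in snakePipes on an Ensembl annotation of dm6, and the submitters' processing notes name STAR, Subread and DESeq2. For the alignment no version, and for the counting no strand setting, is given in the sources used here. The deposited values are raw counts per gene, not normalized, with replicates not pooled. The table has 17558 genes, 15492 with a count, and 0 columns were left unused.

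Groups, genotypes and replicate numbers were taken from the labels. Gene symbols, biotypes, positions and lengths of exons were looked up in an Ensembl annotation of BDGP6 that is newer than the authors' one. Of the identifiers 17252 matched and 306 did not, and those without a match stayed in the tests. Levels are CPM on TMM library sizes over all 18 libraries. Each comparison was fitted with edgeR 4.0.16 in R 4.3.3 (quasi-likelihood test, TMM, base mean above 10, Benjamini-Hochberg over all genes tested), on the deposited counts of the groups compared, with the preparation as a block. The SE was obtained from the log2 fold change and the F statistic (their size ratio, with F under a root). The base mean, p and fold change thresholds are those the study used between genotypes in whole heads, applied here to every comparison. Numbers pair the samples, because a pellet came from the lysate of its number. Deviations from the group means correlated at 0.71, 0.74 and 0.62 in same-numbered Δmimi libraries (-0.55 to -0.24 otherwise). In wild type they correlated at 0.61, 0.73 and 0.46 (-0.61 to 0.22 otherwise). Deviations within a group cancel out, so the same-numbered and the other correlations are not independent of each other. No replicate pair within Δmimi granules 1 or Δmimi lysate was near sampling noise (chi-square per degree of freedom 13.7 to 43.6). The model fit was tested only on data simulated under the same kind of model, with preparation effects of equal spread for all genes. It was not tested for larger differences between preparations, such as those of Mlc2 and Fbp1.

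Total counts per library are given with the results. A floor of 3 counts marks a group as near 0 and, like any interval from reads without molecular identifiers, covers counting error only.

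Named RNAs are, among called RNAs with the same direction in all 3 pairs and at least 10 CPM in the higher fraction, the 12 highest and 12 lowest, the 5 highest and 5 lowest noncoding and the 5 most abundant in each direction. To these come up to 4 called members of each list (the 2 most abundant where none was called), the RNAs of genes named by the study and the 10 lowest p-values of the genotype difference. Further names, uncalled list members included, were chosen after their values were seen. The members and all gene lists were chosen with earlier results of these data known, and some lists were edited later. Alternatives were no block, DESeq2 1.42.0 with the block, RLE library sizes, no filter, a base mean above 50, leaving out each preparation, a length correction (loess offset on exon length), mitochondrially encoded genes left out and all 18 libraries in 1 fit. A planned description of hydrophobic protein segments was not run, since no protein sequences were at hand.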

Additional observations from a re-analysis of the deposited data

Results flagged for a closer look

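For 10 RNAs, those of lowest p in the interaction test, the enrichment in granules 1 over lysate differed between Δmimi and wild type. The differences, Δmimi minus wild type on the log2 scale, were -1.86 for salr, -1.70 for Dop2R, -1.36 for GstT3 and -1.16 for GstS1 (glutathione S-transferases), -1.06 for CG8303, -1.06 for CG2065, -0.98 for the follistatin gene Fs, -0.97 for CG7059, -0.79 for fabp, a fatty acid binding protein, and 0.93 for Cpr72Ec. GstT3 had -0.30 in Δmimi and 1.05 in wild type, GstS1 0.34 and 1.49, CG8303 0.24 and 1.29, and CG2065 0.16 and 1.20. Fs had 1.21 and 2.17, CG7059 0.94 and 1.90, and fabp 1.08 and 1.85, so these were enriched in both genotypes. Without the preparation as a block only salr passed, and the adjusted p of edgeR was 0.506 for Dop2R, 0.716 for Fs, 0.684 for fabp and 0.857 for GstT3.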

How the results depend on the processing

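The preparation as a block had the widest effect. Without the replicate block, 282 RNAs were higher and 187 lower in Δmimi granules 1 (583 and 779 with it), 256 higher and 184 lower in Δmimi granules 2, 315 lower in wild type, and 0 more and 1 less enriched in the genotype difference. The block ended the calls of 71 of 199 named RNAs when it was left out, ninaE, Mlc2, Fbp1, osk, Pdf and lncRNA:Hsromega among them. DESeq2 called 466 lower in Δmimi granules 1, 505 in Δmimi granules 2 and 518 in wild type, and 3 more enriched in the genotype difference, and it ended 19 of the 199 calls. With the length correction 399 were lower, and 42 named RNAs lost their call. With no filter the genotype difference gave 33 and 85. Leaving out a preparation gave 543 to 682 higher and 626 to 924 lower in Δmimi granules 1, and 638 to 781 higher and 581 to 848 lower in wild type, the lowest without wild-type preparation 3. In Δmimi granules 2 it gave 535 to 663 higher and 687 to 950 lower. The genotype difference then ranged from 1 to 9 more and 10 to 69 less enriched. RLE library sizes ended 1 of the 199 calls, and no value tried changed direction while called. With 3 preparations a genotype, RNAs of a few CPM are measured with large errors. Causes of these shifts were not tested.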
